A study of Canis lupus familiaris with 12 samples.

Results

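The genes described here encode simple-epithelial keratins (KRT8, KRT18, KRT7, and KRT19), vimentin (VIM), fibronectin (FN1), and transcription factors known from the epithelial–mesenchymal transition (EMT; SNAI1, SNAI2, ZEB1, and ZEB2). The members were chosen by name, as a list of 10 genes, with earlier results of these data known, and 9 of them are among the 13672 genes of the deposited expression table. ZEB2 is not analysed here. All 9 passed the filter on low values that left 12650 genes for testing. RNASeq was performed on MDCKII cells, an epithelial line from the kidney of a dog, grown without any treatment. The WT line was compared with lines made by CRISPR/Cas9 that lack cingulin (CGN-KO, clone 1G8), paracingulin (CGNL1-KO, clone 22), or both (double-KO, clone 21D3), with 3 libraries of each. Each KO genotype was 1 clone, so the genotype and the clone cannot be told apart, and the labels do not say whether the libraries of a line came from separate cultures. The p-values therefore measure the spread between libraries, which may be technical. Cingulin and paracingulin are cytoplasmic proteins of tight junctions and adherens junctions that connect junctions to actomyosin, and the comparisons ask how transcript levels differ when 1 or both are missing.

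Keratin filaments are built from pairs of a type I and a type II keratin. KRT7 and KRT8 are type II keratins, KRT18 and KRT19 are type I keratins, and KRT8 with KRT18 forms the basic filament of simple epithelia. Vimentin is a type III intermediate filament protein, typical of mesenchymal cells and also made by many epithelial cells in culture. Fibronectin is a matrix glycoprotein that cells bind through integrins. SNAI1, SNAI2, and ZEB1 are repressors that bind E-box sequences, for example in the promoter of CDH1 (E-cadherin), and that can drive EMT, in which keratin and E-cadherin levels usually decrease and vimentin and fibronectin levels increase.

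Levels are given in counts per 1000000 reads (CPM), as scaled by the authors, and are compared between libraries but not between genes, since transcript lengths were not at hand. The recovered depth was between 16837532 and 30086076 reads per library. CGN was at 199 to 233 CPM in WT, 47.0 to 56.5 CPM in CGN-KO, and 39.7 to 45.3 CPM in double-KO cells, and CGNL1 was at 7.74 to 12.3 CPM in WT, 1.76 to 3.02 CPM in CGNL1-KO, and 1.11 to 1.76 CPM in double-KO cells, so the targeted transcripts were reduced and not absent. CGNL1 was also lower in CGN-KO cells (5.04 to 6.92 CPM, adjusted p = 0.0201). Of the kidney epithelial markers 6 of 6 were listed (CDH1 at 989 to 1348 CPM, EPCAM at 555 to 791 CPM). Their summed level was 1827 to 2028 CPM in WT, 2169 to 2298 CPM in CGN-KO, 2260 to 2337 CPM in CGNL1-KO, and 2051 to 2116 CPM in double-KO cells. Of the markers of other cell types, 1 of 8 was listed for fibroblasts (PDGFRA, at 2.705 to 11.1 CPM) and 1 of 5 for endothelium (KDR, at 0.0969 to 2.41 CPM). For leukocytes 2 of 5 were listed (CD14, at 5.92 to 11.5 CPM, and CD68, at 0.560 to 1.34 CPM). For smooth muscle 1 of 4 was listed (ACTA2, at most 0.589 CPM). The defining fibroblast collagens COL1A1, COL1A2, and COL3A1 were not among the listed genes.

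The 4 genotypes differed in FN1, KRT19, KRT18, SNAI1, and SNAI2, and no difference among the 4 passed for KRT8, KRT7, VIM, or ZEB1. By limma's F test across the genotypes 5 of the 9 members had an adjusted p below 0.05, where 29.9% of all genes tested did. Without WT replicate 2 the count was 3, as it was without double-KO replicate 3. Compared to WT, 4 members passed in CGN-KO cells (KRT19, FN1, and SNAI1 higher, KRT18 lower), where 19.0% of all genes did (11.2% higher and 7.87% lower). In CGNL1-KO cells KRT19, FN1, and SNAI1 passed, all higher, against 10.3% of all genes (6.81% higher and 3.49% lower). In double-KO cells 1 member passed (FN1, higher), against 26.3% of all genes (14.8% higher and 11.5% lower), so that the share of members past the test lay below that of all genes. Groups that did not overlap with WT were seen for 3, 3, and 4 members in the CGN-KO, CGNL1-KO, and double-KO lines, against 35.9%, 24.4%, and 45.0% of all genes. No member differed from WT by 2-fold or more, as 1.31%, 0.617%, and 1.41% of all genes did in these lines. The median log2 difference from WT over the 9 members was -0.084 for the CGN-KO line, -0.013 for CGNL1-KO, and 0.14 for double-KO, while the median of all genes was within 0.0039 of 0. These 3 comparisons share the WT libraries.

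**Figure D1:**
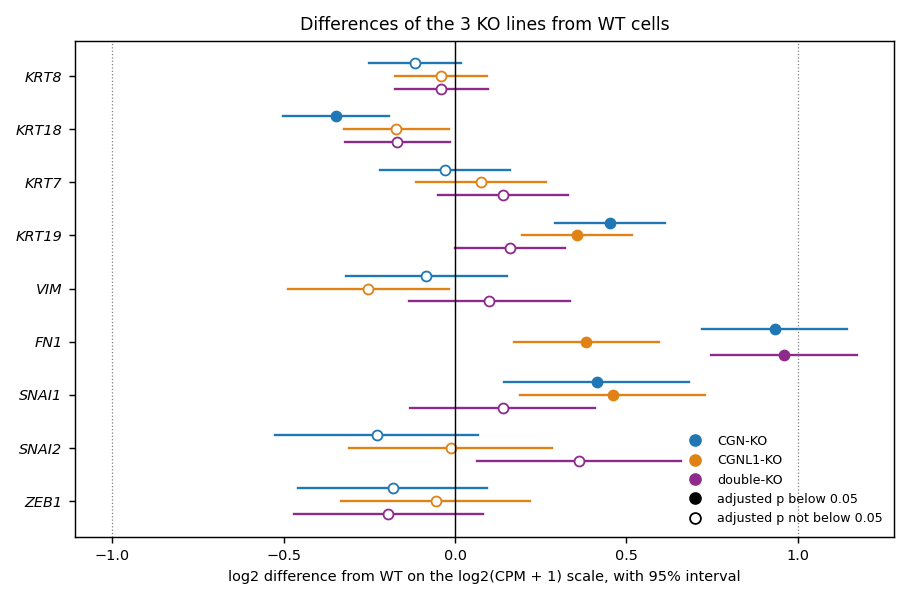
Log2 differences of each KO line from WT cells on the log2(CPM + 1) scale, for the 9 members. Points are the fitted differences, lines are 95% intervals, filled points have an adjusted p below 0.05, and dotted lines mark a 2-fold difference. FN1 lies highest in CGN-KO (0.93) and double-KO cells (0.96), and the intervals of KRT8, KRT7, and ZEB1 all include 0.

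KRT8, the main type II partner of KRT18, was at 1920, 1957, and 2111 CPM in WT cells and at 1927, 1804, and 1788 CPM in CGN-KO cells. It was at 2003, 1893, and 1920 CPM in CGNL1-KO cells and at 1894, 1949, and 1977 CPM in double-KO cells. The groups overlapped throughout. On the log2 scale CGN-KO cells differed from WT by -0.12 (95% interval -0.25 to 0.018), CGNL1-KO cells by -0.041 (-0.18 to 0.094), and double-KO cells by -0.040 (-0.18 to 0.095). Its coefficient of variation within a genotype was 2.18% to 5.07%, so that the upper value was the lowest among the 9 members.

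KRT7, the other type II keratin, typical of ducts and glands, was at 2170, 2594, and 2876 CPM in WT cells. It was between 2393 and 2585 CPM in CGN-KO, between 2584 and 2723 CPM in CGNL1-KO, and between 2704 and 2950 CPM in double-KO cells. The WT libraries alone spanned nearly the whole range of the 12 libraries, and no comparison passed the test. The difference between double-KO and WT cells was 0.14 on the log2 scale (95% interval -0.049 to 0.33, adjusted p = 0.271). The double-KO libraries lay above all CGN-KO libraries, by 0.17 (adjusted p = 0.287).

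KRT18, the type I keratin that pairs with KRT8, was at 1608, 1727, and 1562 CPM in WT cells and fell to 1214, 1336, and 1298 CPM in CGN-KO cells. Each CGN-KO library was below each WT library, and the difference of -0.35 (SE 0.072, adjusted p = 0.00284) passed the test under all 14 alternatives, with adjusted p between 1.15e-05 and 0.0210. On the log2(CPM + 1) scale this was a level 21.4% below WT (-21.4%). In CGNL1-KO cells KRT18 was at 1317, 1584, and 1456 CPM, which overlapped with WT, and the difference was -0.17 (adjusted p = 0.166). In double-KO cells it was at 1460, 1407, and 1488 CPM, below each WT library, and the difference of -0.17 did not pass the test (adjusted p = 0.0998).

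KRT19, the smallest type I keratin, which lacks most of the tail domain of other keratins, moved the other way. It was at 1734, 1594, and 1644 CPM in WT cells and rose to 2375, 2210, and 2217 CPM in CGN-KO cells and to 2392, 1959, and 2033 CPM in CGNL1-KO cells. Each of these 6 libraries was above each WT library. The log2 difference was 0.45 (SE 0.076, adjusted p = 0.000485) for the CGN-KO line and 0.36 (SE 0.076, adjusted p = 0.00577) for the CGNL1-KO line. Both differences passed the test under all 14 alternatives. In double-KO cells KRT19 was at 1832, 1834, and 1886 CPM, a narrow range just above WT, and the difference of 0.16 did not pass the test (adjusted p = 0.134).

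**Figure D2:**
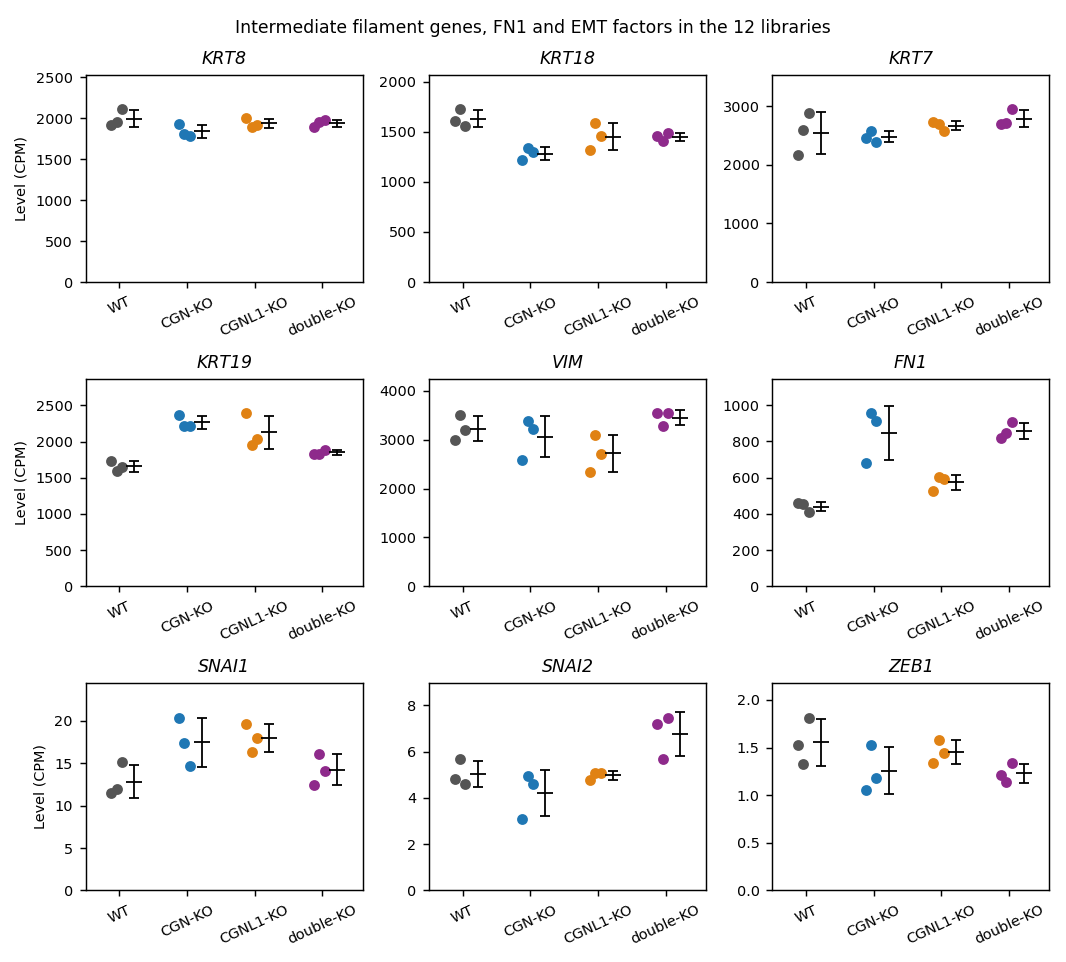
Level of each member in the 12 libraries, in CPM on a linear axis from 0. Points are libraries in the order of their replicate numbers (double-KO with the unnumbered library first), and bars are the mean and SD of 3 libraries. FN1 and KRT19 show the clearest separation from WT, KRT8 and KRT7 show little, and SNAI2 is highest in double-KO cells.

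The ratio of KRT8 to KRT18 within a library does not depend on how libraries were scaled. It was 1.23 ± 0.112 (SD, n = 3) in WT cells, and 1.44 ± 0.129, 1.34 ± 0.165, and 1.34 ± 0.0445 in the CGN-KO, CGNL1-KO, and double-KO lines. The ranges overlapped, and a difference among the 4 genotypes larger than the spread between libraries was not detected (exact permutation test of F, p = 0.270). For any pair of genotypes the smallest p that 3 libraries against 3 allow is 0.1, and the lowest exact p was 0.2, for WT against CGN-KO.

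The ratio of the type I keratins, KRT19 to KRT18, was looked at after their values were seen and was not tested. It was 1.02 ± 0.083 in WT cells, and 1.77 ± 0.161, 1.48 ± 0.299, and 1.28 ± 0.0254 in the CGN-KO, CGNL1-KO, and double-KO lines. In each of the 9 KO libraries it was above each WT library, with the CGN-KO libraries at 1.65 to 1.96 and the WT libraries at 0.923 to 1.08. The sum of the 4 keratins was similar, at 7833 ± 383 CPM in WT, 7870 ± 152 CPM in CGN-KO, 8187 ± 225 CPM in CGNL1-KO, and 8032 ± 234 CPM in double-KO cells. The type II to type I ratio (KRT8 plus KRT7 to KRT18 plus KRT19) was 1.38 ± 0.166, 1.22 ± 0.0246, 1.29 ± 0.0114, and 1.43 ± 0.0322 in the same order. Such ratios are compared between libraries only, since the genes differ in length.

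**Figure D3:**
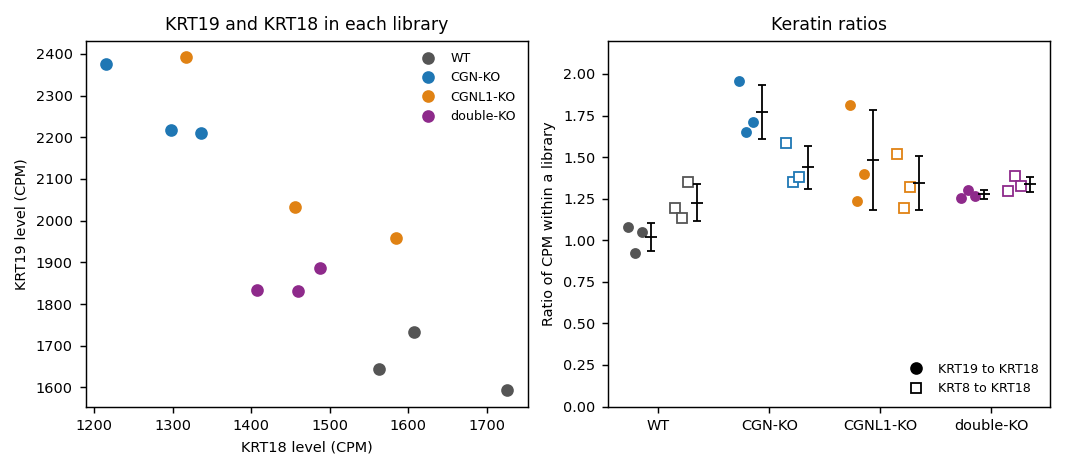
Left, KRT19 against KRT18 level in each library (CPM); right, ratios of CPM within a library for KRT19 to KRT18 (filled circles) and KRT8 to KRT18 (open squares), with mean and SD of 3 libraries. WT libraries lie at high KRT18 and low KRT19, CGN-KO libraries at the opposite end, and double-KO libraries between them.

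VIM was at 2991, 3499, and 3190 CPM in WT cells and at 2585, 3374, and 3217 CPM in CGN-KO cells. It was at 2345, 3099, and 2711 CPM in CGNL1-KO cells and at 3539, 3277, and 3538 CPM in double-KO cells. Each KO line overlapped with WT, and no difference from WT passed the test (-0.084, -0.25, and 0.099 on the log2 scale, with adjusted p = 0.648, 0.183, and 0.551). The 95% intervals of these differences were -0.32 to 0.15, -0.49 to -0.019, and -0.14 to 0.33.

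FN1 showed the largest differences of the members. It was at 457, 452, and 409 CPM in WT cells and rose to 679, 955, and 910 CPM in CGN-KO cells, to 528, 605, and 590 CPM in CGNL1-KO cells, and to 818, 845, and 906 CPM in double-KO cells. No KO library overlapped with WT. The CGN-KO line differed by 0.93 on the log2 scale (SE 0.10, adjusted p = 6.05e-06) and the double-KO line by 0.96 (SE 0.10, adjusted p = 3.70e-06), or 90.8% and 94.6% above WT, just under 2-fold. Both passed the test under all 14 alternatives. In CGNL1-KO cells the difference was 0.38 (SE 0.10, adjusted p = 0.0214), or 30.4%. That call was lost without WT replicate 2 (adjusted p = 0.0511), WT replicate 3 (0.0981), CGNL1-KO replicate 2 (0.0646), or CGNL1-KO replicate 3 (0.0807), within a range of 0.00163 to 0.0981 over 14 alternatives. The ratio of FN1 to VIM within a library was 0.137 ± 0.0140 in WT cells, and 0.276 ± 0.0119, 0.213 ± 0.0155, and 0.248 ± 0.0149 in the CGN-KO, CGNL1-KO, and double-KO lines.

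SNAI1, the factor with the most reads of the EMT factors (195 to 619 per library), was at 11.5, 11.9, and 15.1 CPM in WT cells. It was at 20.4, 17.4, and 14.6 CPM in CGN-KO cells and at 19.6, 16.3, and 18.0 CPM in CGNL1-KO cells. The log2 difference was 0.41 (SE 0.13, adjusted p = 0.0315) in CGN-KO cells, where CGN-KO replicate 3 lay below WT replicate 3, and 0.46 (SE 0.13, adjusted p = 0.0284) in CGNL1-KO cells, where the groups did not overlap. In double-KO cells SNAI1 was at 12.4, 16.1, and 14.1 CPM, which overlapped with WT (0.14, adjusted p = 0.458). In CGN-KO cells the call was lost without WT replicate 1 (adjusted p = 0.111), WT replicate 2 (0.118), CGN-KO replicate 1 (0.129), or CGN-KO replicate 2 (0.0750), with 0.00976 as the lowest of 14 alternatives. In CGNL1-KO cells it was lost without WT replicate 1 (adjusted p = 0.110), WT replicate 2 (0.116), CGNL1-KO replicate 1 (0.0757), or CGNL1-KO replicate 3 (0.0832), with 0.00741 as the lowest of 14.

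SNAI2 was at 4.83, 5.69, and 4.59 CPM in WT cells, with 78 to 184 reads per library, and at 7.17, 5.69, and 7.47 CPM in double-KO cells. Each double-KO library lay above the WT libraries, the lowest of them only marginally, and the difference of 0.36 on the log2 scale missed the threshold (adjusted p = 0.0681). It passed without double-KO replicate 2 (0.47, adjusted p = 0.0406), in a range of 0.0258 to 0.226 over 14 alternatives. In CGN-KO cells it was at 3.07, 4.94, and 4.61 CPM (-0.23, adjusted p = 0.276) and in CGNL1-KO cells at 4.76, 5.06, and 5.08 CPM (-0.013, adjusted p = 0.972). ZEB1 was near the filter of 1 CPM, with 20 to 38 reads per library. It ranged from 1.32 to 1.82 CPM in WT, from 1.06 to 1.53 CPM in CGN-KO, from 1.34 to 1.58 CPM in CGNL1-KO, and from 1.14 to 1.34 CPM in double-KO cells, and the groups overlapped. Its largest difference from WT was -0.19 in double-KO cells (95% interval -0.47 to 0.080), and any difference within this interval is compatible with the values.

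Next, the KO lines were compared with each other. FN1 was the only member that passed between CGN-KO and CGNL1-KO cells (0.55 higher in CGN-KO cells, adjusted p = 0.00311), where 5.19% of all genes passed, and it was also the 1 member whose libraries did not overlap, against 19.4% of all genes. Libraries of these lines that carry the same number deviated together, and with the replicate number as a block over these 6 libraries KRT18 passed as well (-0.18, adjusted p = 0.0223, against 0.209 without the block, with up to 0.514 over 15 alternatives). KRT18 also passed without CGNL1-KO replicate 1 (-0.24, adjusted p = 0.0410). KRT18 was lower in CGN-KO than in CGNL1-KO cells in 3 of 3 same-numbered pairs, by 0.12 to 0.25 on the log2 scale. KRT19 differed by 0.096 between these lines (95% interval -0.064 to 0.26) and SNAI1 by -0.047 (-0.32 to 0.22).

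Between double-KO and CGN-KO cells, KRT19 was lower in double-KO cells (-0.29, adjusted p = 0.0238) and SNAI2 was higher (0.59, adjusted p = 0.0141), 2 of 9 members against 8.84% of all genes. The libraries did not overlap for 4 members (KRT18, KRT7, KRT19, and SNAI2), against 30.5% of all genes. With 1 library left out, the KRT19 call was lost without CGN-KO replicate 1 (adjusted p = 0.0826), CGN-KO replicate 3 (0.0546), the unnumbered double-KO library (0.0913), double-KO replicate 2 (0.0827), or double-KO replicate 3 (0.0641), and reached 0.000852 at the lowest of 14 alternatives. With 1 library left out, the SNAI2 call was lost without CGN-KO replicate 1 (adjusted p = 0.0735), the unnumbered double-KO library (0.0727), or double-KO replicate 3 (0.0761), and reached 0.00375 at the lowest. With the replicate block neither passed (adjusted p = 0.0611 for KRT19 and 0.0559 for SNAI2). FN1 differed by 0.028 between these lines, with a 95% interval of -0.18 to 0.24.

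Between double-KO and CGNL1-KO cells, FN1 (0.58, adjusted p = 0.00114) and VIM (0.35, adjusted p = 0.0426) were higher in double-KO cells, 2 of 9 members against 14.4% of all genes. The libraries did not overlap for 5 members (KRT19, VIM, FN1, SNAI1, and SNAI2), against 31.8% of all genes. FN1 passed under all 14 alternatives. With 1 library left out, the VIM call was lost without CGNL1-KO replicate 1 (adjusted p = 0.141), CGNL1-KO replicate 3 (0.113), the unnumbered double-KO library (0.125), double-KO replicate 2 (0.0726), or double-KO replicate 3 (0.139), and reached 0.0110 at the lowest. It was also lost with the replicate block (adjusted p = 0.0698). KRT19 was lower by value (-0.20, adjusted p = 0.101) and passed without CGNL1-KO replicate 2 (-0.25, adjusted p = 0.0413) and with DESeq2 (adjusted p = 0.0292), in a range of up to 0.343 over 14 alternatives. Between the KO lines a 2-fold difference was likewise not seen in any member (0.648%, 0.356%, and 0.696% of all genes for CGN-KO against CGNL1-KO and for double-KO against each of them). The order of the FN1 means was thus WT, CGNL1-KO, CGN-KO, and double-KO, of which the last neighbours, CGN-KO and double-KO, did not differ beyond their spread.

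To determine whether the double-KO line differed from WT by the sum of what the single-KO lines showed, an interaction was tested on the log2 scale. It passed for KRT19 (-0.65, SE 0.11, adjusted p = 0.000976), SNAI1 (-0.73, SE 0.18, adjusted p = 0.0156), and KRT18 (0.35, SE 0.10, adjusted p = 0.0390), 3 of 9 members against 10.3% of all genes (1.63% by at least 2-fold). With 1 library left out the count was between 1 and 4. It was 1 without the unnumbered double-KO library and 4 without CGN-KO replicate 2 or CGNL1-KO replicate 2. For KRT19 the single-KO differences summed to 0.81 and the double-KO difference was 0.16, and for SNAI1 they summed to 0.87 against 0.14. For KRT18 they summed to -0.52 against -0.17. In each of these genes the double-KO level was closer to WT than the sum. The KRT19 interaction passed under all 19 alternatives. The SNAI1 interaction did not pass without the unnumbered double-KO library (-0.65, adjusted p = 0.0532). With 1 library left out, the KRT18 interaction passed only when that library was WT replicate 3, CGN-KO replicate 2, or CGNL1-KO replicate 2, and had an adjusted p between 0.0514 and 0.111 otherwise. For FN1 the sum was 1.32 against 0.96, and the interaction of -0.36 did not pass (adjusted p = 0.130), but passed in 2 of 19 alternatives, without CGN-KO replicate 1 (-0.51, adjusted p = 0.00270) and with the replicate block (-0.38, adjusted p = 0.0422), in a range of up to 0.263. For VIM (0.44, adjusted p = 0.0914) and SNAI2 (0.60, adjusted p = 0.0643) the interaction did not pass. It did pass for VIM without CGNL1-KO replicate 2 (0.54, adjusted p = 0.0279, up to 0.218 over 19 alternatives) and for SNAI2 without CGN-KO replicate 2 (0.71, adjusted p = 0.0400) or double-KO replicate 2 (0.71, adjusted p = 0.0480), with up to 0.165 over 19 alternatives. It was 0.12, 0.093, and 0.045 for KRT8, KRT7, and ZEB1.

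**Figure D4:**
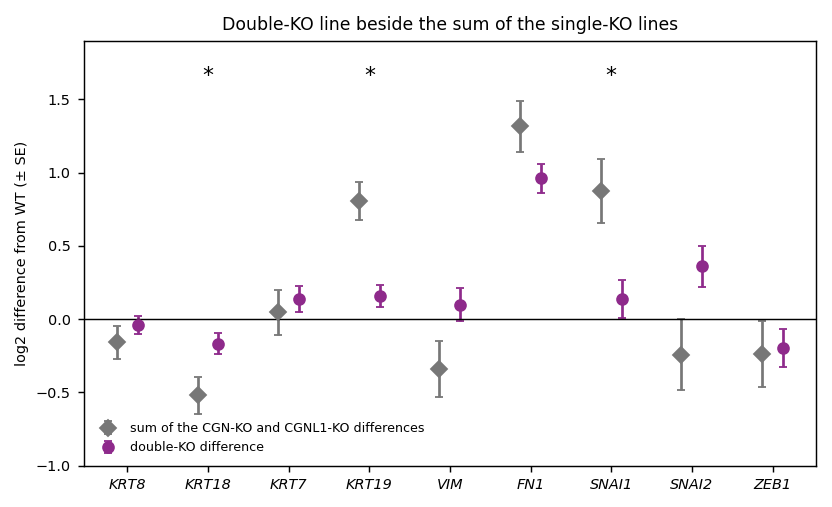
Double-KO log2 difference from WT (circles, ± SE) beside the sum of the CGN-KO and CGNL1-KO differences (diamonds, ± SE) for the 9 members; stars mark an interaction with an adjusted p below 0.05. KRT19 and SNAI1 lie near 0 in double-KO cells (0.16 and 0.14) where the sums are 0.81 and 0.87.

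Part of the spread within the single-KO lines was shared between genes. In each single-KO line, replicate 1 had the lowest VIM, FN1, and KRT18 and the highest KRT19 and SNAI1 of that line. CGN-KO replicate 1 was also the deepest library (30086076 reads), whereas CGNL1-KO replicate 1 had the fewest reads of its line (17374607). What a replicate number stands for is not given in the sources used here, and its part in these values was not tested beyond the block. Against the same-numbered WT library, KRT19 was higher in 3 of 3 CGN-KO libraries (0.43 to 0.47) and 3 of 3 CGNL1-KO libraries (0.30 to 0.46). FN1 was higher in 3 of 3 libraries of each single-KO line (0.57 to 1.15 and 0.21 to 0.53), and KRT18 was lower in 3 of 3 CGN-KO libraries (-0.40 to -0.27).

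Other intermediate filament genes were then examined. Counts in this and the next lists stand beside the 19.0%, 10.3%, and 26.3% of all genes that passed in CGN-KO, CGNL1-KO, and double-KO cells. Of 36 listed genes, 12 were found and 11 tested, and 6 of these differed among the genotypes. In CGN-KO cells 4 rose (KRT14, KRT16, KRT75, and BFSP1), in CGNL1-KO cells 3 rose and 1 fell, and in double-KO cells 1 rose and 2 fell. KRT75 passed the filter on low values only through its CGN-KO libraries (1.73 to 2.42 CPM, against 0.236 to 1.24 CPM in WT cells), so its place in the CGN-KO count is favoured by the filter. KRT14, a type I keratin of basal cells, rose by 0.54 in CGN-KO (adjusted p = 0.000165) and by 0.65 in CGNL1-KO cells (adjusted p = 5.33e-05) and fell by 0.54 in double-KO cells (adjusted p = 0.000131). KRT16, a type I keratin of stressed epidermis, rose by 0.61 and 1.04 in the single-KO lines (adjusted p = 0.000181 and 1.46e-06) and was 0.060 from WT in double-KO cells (adjusted p = 0.672). Both had an interaction in the direction of that of KRT19 (-1.74 for KRT14 and -1.58 for KRT16, adjusted p = 8.31e-08 and 1.00e-06). KRT14 and KRT16 are close in sequence to each other and to other type I keratins, and how the counting treated shared reads is not given in the sources used here, so their values are uncertain. The lamins LMNA, LMNB1, and LMNB2 did not pass in any KO line, with differences from WT between -0.11 and 0.069. The median difference over the list was 0.028, 0.079, and 0.054 in CGN-KO, CGNL1-KO, and double-KO cells.

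Linkers that tie intermediate filaments to junctions and to the nucleus were tested next. Of 13 genes, 2 rose and 1 fell in CGN-KO cells, and 2 fell in each of CGNL1-KO and double-KO cells, shares near or below those of all genes. DSP (desmoplakin, the plakin that anchors keratins to desmosomes) rose by 0.32 in CGN-KO cells (adjusted p = 0.00442). EVPL (envoplakin, a plakin of the cornified envelope) fell by 0.61 and 0.66 in CGNL1-KO and double-KO cells (adjusted p = 0.00238 and 0.000482). SYNE3 (nesprin-3, which links plectin to the nuclear envelope) fell by 0.81 and 0.88 in CGN-KO and double-KO cells (adjusted p = 0.00361 and 0.00144). It was at 1.89 to 2.32 CPM in WT and 1.22 to 2.32 CPM in CGNL1-KO cells. In CGN-KO and double-KO cells it was at 0.543 to 1.06 and 0.512 to 1.10 CPM. SYNE3 thus met the filter on low values through its WT and CGNL1-KO libraries, so its place among the genes that fell is favoured by the filter. DST (dystonin) fell by 0.21 in CGNL1-KO cells (adjusted p = 0.0368). The median differences of the 13 genes were -0.036, -0.13, and 0.088 in the order above.

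Of 27 genes of epithelial identity tested, 9 rose and 3 fell in CGN-KO, 8 rose and none fell in CGNL1-KO, and 7 rose and 7 fell in double-KO cells, with medians of 0.094, 0.071, and -0.00026. CDH1, the E-cadherin gene that SNAI and ZEB factors can repress, rose by 0.25 in CGNL1-KO cells (adjusted p = 0.0218) and differed by 0.070 and -0.13 in CGN-KO and double-KO cells (adjusted p = 0.496 and 0.162). EPCAM, an epithelial adhesion molecule, rose in each KO line (0.40, 0.26, and 0.33, adjusted p = 6.83e-05, 0.00483, and 0.000265). OVOL2, a repressor of EMT factors, also rose in each (0.63, 0.44, and 0.46, adjusted p = 6.21e-05, 0.00285, and 0.000827), and so did SPINT2, a serine protease inhibitor (0.39, 0.27, and 0.49). GRHL3, an epithelial transcription factor, rose by 1.09 and 0.74 in the single-KO lines (adjusted p = 2.26e-05 and 0.00150).

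Of 36 mesenchymal genes and further EMT factors, 14 were found and 11 tested, and 5 rose in each KO line, while 1 fell in CGNL1-KO (TAGLN) and 1 in double-KO cells (MMP9). The median differences were 0.29, 0.21, and 0.25. COL5A1, a fibrillar collagen chain, rose by 0.99, 0.52, and 0.98 in CGN-KO, CGNL1-KO, and double-KO cells (adjusted p = 1.71e-07, 0.000301, and 1.78e-07). SPARC, a matrix protein, is among the 5 in each line, but at 0.471 to 0.938 CPM in WT cells it passed the filter only through the KO libraries (1.91 to 2.24, 2.61 to 3.21, and 1.42 to 1.58 CPM), which favours a difference in this direction. MMP9, a matrix metalloprotease at 1.77 to 2.53 CPM in WT cells, rose by 1.38 in CGNL1-KO cells (adjusted p = 0.00327), where the libraries ranged widely, from 3.57 to 12.8 CPM. It fell by 1.03 in double-KO cells (adjusted p = 0.01004). There it was at 0.339 to 0.569 CPM, below the filter on low values, which MMP9 met only through the other lines. This favours a fall in double-KO cells. TAGLN, a smooth muscle actin-binding protein, fell by 0.42 in CGNL1-KO cells (adjusted p = 0.0113). PDGFRA, the listed fibroblast marker, was at 2.705 to 5.48 CPM in WT, 5.88 to 11.1 CPM in CGN-KO, 3.75 to 9.81 CPM in CGNL1-KO, and 4.94 to 6.996 CPM in double-KO cells. It is among the 5 that rose in CGN-KO cells (0.81, adjusted p = 0.0489). It did not pass in CGNL1-KO (0.41, adjusted p = 0.422) or double-KO cells (0.52, adjusted p = 0.178). The part of fibroblasts in the values of this list was not tested.

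Genes of the TGF-beta and BMP pathways, which can induce SNAI1, SNAI2, and FN1, were tested as 29 of 32 listed genes. In CGN-KO cells 11 rose and 4 fell, in CGNL1-KO cells 5 rose and 1 fell, and in double-KO cells 13 rose and 4 fell. TGFB2, a ligand, rose by 0.86, 0.92, and 0.97 (adjusted p = 7.71e-07, 6.46e-07, and 1.85e-07). BAMBI, a decoy receptor, rose by 1.64 and 1.04 in CGN-KO and double-KO cells (adjusted p = 1.59e-07 and 1.66e-05) and was 0.33 above WT in CGNL1-KO cells (adjusted p = 0.124). At 0.883 to 1.36 CPM in WT cells, BAMBI met the filter on low values only through the KO libraries. These were at 5.23 to 5.60, 1.31 to 1.77, and 2.96 to 3.61 CPM in CGN-KO, CGNL1-KO, and double-KO cells, which favours a difference in this direction. ID3, a target of BMP signalling, differed by 1.36, 0.25, and 1.34 (adjusted p = 5.19e-06, 0.335, and 5.13e-06), of which the CGNL1-KO difference did not pass. LTBP1, which holds latent TGF-beta in the matrix, fell by 0.51 in CGN-KO cells (adjusted p = 1.17e-05) and rose by 0.21 and 0.28 in CGNL1-KO and double-KO cells (adjusted p = 0.0274 and 0.00211). The median over the 29 genes was 0.086, -0.017, and 0.099.

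Of 21 genes tested for fibronectin receptors and fibronectin-binding matrix proteins, 10 rose and 2 fell in CGN-KO, 6 rose and none fell in CGNL1-KO, and 10 rose and 1 fell in double-KO cells. ITGB3, the beta chain of an integrin that binds fibronectin and vitronectin, rose by 0.58, 0.54, and 0.58 (adjusted p = 1.63e-06, 7.54e-06, and 1.36e-06). FBLN1, a fibulin that binds fibronectin, rose by 0.66, 0.51, and 0.87 (adjusted p = 8.80e-06, 0.000216, and 3.96e-07). TNS1, a tensin of fibrillar adhesions, rose by 0.43 and 0.53 in CGN-KO and double-KO cells (adjusted p = 5.36e-05 and 5.80e-06). TGM2, a transglutaminase that crosslinks fibronectin, rose in the single-KO lines (0.54 and 0.45, adjusted p = 0.00809 and 0.0386) and fell by 0.64 in double-KO cells (adjusted p = 0.00178). ITGA5, the alpha chain of the main fibronectin receptor, fell by 0.50 in CGN-KO cells (adjusted p = 0.0193), and its partner ITGB1 did not pass in any KO line. The median over the 21 genes was 0.20, 0.14, and 0.19.

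**Figure D5:**
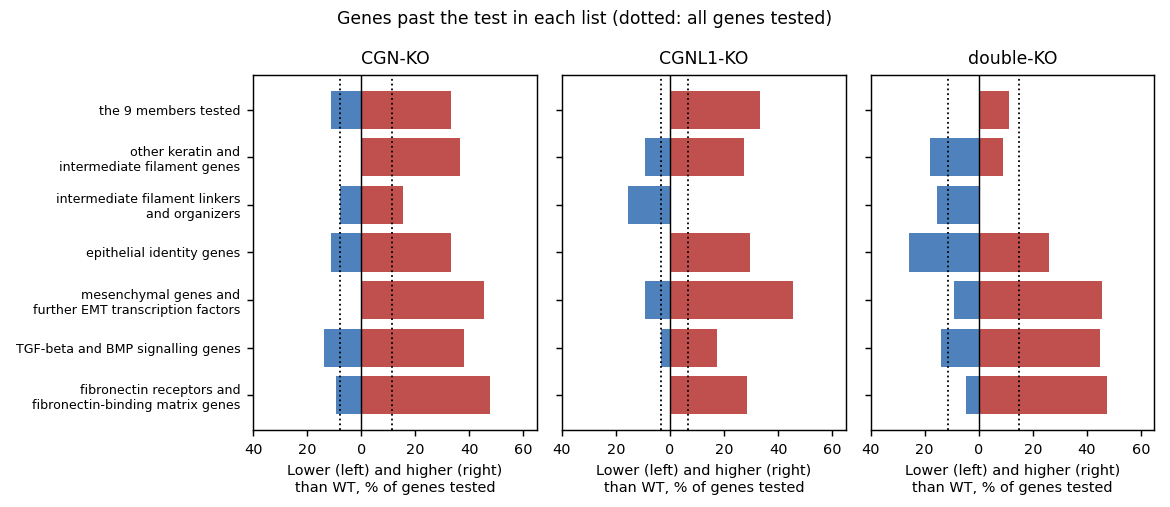
Share of the genes tested in each list that were higher (right, red) or lower (left, blue) than WT at an adjusted p below 0.05, with all genes as dotted lines (11.2%, 6.81%, and 14.8% higher; 7.87%, 3.49%, and 11.5% lower). In each line 5 of 11 mesenchymal genes lie to the right, and 10, 6, and 10 of 21 fibronectin receptor and matrix genes do.

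Neighbouring genes were compared with the members to see whether a whole stretch of a chromosome differed in a clone. Around FN1 the median of the 24 nearest genes tested was -0.015, 0.027, and -0.032 in CGN-KO, CGNL1-KO, and double-KO cells, beside 0.93, 0.38, and 0.96 for FN1 itself. Around KRT19 it was 0.030, -0.010, and 0.028, beside 0.45, 0.36, and 0.16 for KRT19. Around SNAI1 the neighbours were themselves shifted, by 0.12, 0.19, and 0.060, with 19, 19, and 14 of 24 above 0, in the direction of SNAI1 itself (0.41, 0.46, and 0.14). Around KRT18, next to KRT8, the medians were -0.096, -0.019, and -0.097. The part of such a stretch in the values of the members was not tested.

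Finally, the genes with the most similar profile over the 12 libraries were found for each member by Pearson's correlation of log2(CPM + 1), as a description. The points fall into 4 genotypes, so a high value mostly means the same order of genotypes. For FN1 they were AKAP12 (0.99), YWHAQ (0.97), and COL5A1 (0.97), for KRT19 SCGB1A1 (0.98), KALRN (0.97), and TNFRSF21 (0.97), and for KRT18 MRE11 (0.96), PDGFA (0.95), and IPO11 (0.95). For VIM they were MCM5, SMC1A, and CDCA8 (0.97, 0.96, and 0.96), which act in DNA replication, in sister chromatid cohesion, and in mitosis. For SNAI1 they were RNF167, CSPG5, and DUSP2 (0.94, 0.93, and 0.91), for SNAI2 LOC106558298, PURB, and PDCD5 (0.93, 0.92, and 0.92), and for KRT7 HSPBP1, NFKBIB, and HPS6 (0.92, 0.90, and 0.89). The values were lowest for KRT8 (SH3GLB2 0.89, ZNF518A 0.87, and RASA4B 0.85) and ZEB1 (NUP210L 0.89, PFKM 0.85, and LOC609136 0.85), for which no difference among the genotypes passed the test. None passed for VIM or KRT7 either (adjusted p of the F test 0.0946 and 0.388).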

How the data were processed

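The authors prepared stranded mRNA libraries and, per the labels and methods, aligned the reads with STAR 2.7.0f to CanFam3.1 and counted them per gene with HTSeq 0.9.1. The annotation release and the strand setting of the counting are not given in the sources used here. They deposited CPM scaled with edgeR. The unit of the deposited table is named a signal here, as its columns do not each sum to 1000000. Every value (100%) was a whole number of reads within 0.01, so the reads were recovered. A spreadsheet had turned 16 symbols into dates.

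Genotypes were compared with limma 3.58.1 in R 4.3.3 (lmFit; eBayes with its trend option), using log2(CPM + 1) values of all 12 libraries and no block. The test covered genes above 1 CPM in 3 libraries or more, with Benjamini-Hochberg adjustment over all of them. This scale understates differences of low genes. Adjusted p-values come from limma unless another tool is named. CGN-KO and CGNL1-KO libraries of the same number deviated together from their group means across genes (correlations of 0.632, 0.475, and 0.179), so a block for the number was added to their comparison. WT replicates 1 and 2 also deviated with the same-numbered single-KO libraries (0.318 to 0.373), and WT replicate 3 did not (-0.0822 and 0.0110). With the block over all numbered libraries 3429 and 1897 genes passed in CGN-KO and CGNL1-KO cells against WT, beside 2408 and 1302 without it. Only these correlations give the pairing. The column of 1 double-KO library has no number. Alternatives were edgeR 4.0.16 and DESeq2 1.42.0 on the recovered reads, other pseudocounts, no filter, library totals, the block, fits of 2 genotypes, and leaving out each library. Steps were tested on simulated data.

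The members and lists were chosen with earlier results of these data known. Named genes are the members, the targeted genes, the 4 genes of each list with the smallest adjusted p of the F test, the 3 most correlated genes of each member, and the markers, except 1 list gene that is not reported here. KRT18 with KRT19 as a ratio, CDH1, ITGA5, ITGB1, TAGLN, and the lamins were picked from the lists after seeing their values. Gene order was taken from RefSeq (UU_Cfam_GSD_1.0) by symbol for 92.9% of the genes tested, without coordinates. Plots were drawn with matplotlib 3.10.9.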

Additional observations from a re-analysis of the deposited data

Results flagged for a closer look

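The difference of the double-KO line from WT departed from the sum of the single-KO differences in 3 members, by a test of that departure itself (limma, adjusted over all genes). The interaction was -0.65 for KRT19 (adjusted p = 0.000976) and it passed the test under all 19 alternatives. It was -0.73 for SNAI1 (adjusted p = 0.0156), where leaving out the unnumbered double-KO library ended the call (-0.65, adjusted p = 0.0532, the highest of 19 alternatives). It was 0.35 for KRT18 (adjusted p = 0.0390), where 9 of 12 left-out libraries ended the call, with adjusted p of up to 0.111 (without WT replicate 2). For each of these genes the double-KO level lay nearer to WT than the sum of the single-KO differences.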

How the results depend on the processing

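Of 936 differences of members under the alternatives, 881 kept their side of the threshold, 38 no longer passed, 17 newly passed, and 0 of the called differences changed direction. The count of members that differed among the 4 genotypes went from 5 to between 3 and 6 when 1 library was left out (3 without WT replicate 2 or without double-KO replicate 3). The interaction count went from 3 to between 1 and 4 in the same way (1 without the unnumbered double-KO library). Against WT, the CGNL1-KO count of 3 went to between 1 and 2 with 1 library left out (1 without WT replicate 2 or without CGNL1-KO replicate 3), and the double-KO count of 1 to between 1 and 2. The double-KO count was 3 with the replicate block (KRT18 and KRT19 as well, adjusted p = 0.0354 and 0.0313) and 4 with the libraries of the 2 genotypes only. For CGN-KO against CGNL1-KO the count of 1 was 2 with the replicate block over the libraries of these lines, an alternative added after the data were seen, and between 1 and 2 with 1 library left out (2 without CGNL1-KO replicate 1). For double-KO against CGN-KO the count of 2 was 0 with the replicate block and between 0 and 2 with 1 library left out (0 without CGN-KO replicate 1, the unnumbered library, or double-KO replicate 3). For double-KO against CGNL1-KO the count of 2 was 1 with the replicate block and between 1 and 3 with 1 library left out (3 without CGNL1-KO replicate 2). With the block, VIM passed in CGNL1-KO cells against WT (-0.25, adjusted p = 0.0293) and FN1 passed for the interaction (-0.38, adjusted p = 0.0422). The block leaves out the unnumbered library. The numbers did not pair the double-KO with other libraries (correlations of -0.235 to 0.0859). On the recovered reads edgeR called 2429, 1264, and 3327 genes in CGN-KO, CGNL1-KO, and double-KO cells against WT. The exact p of the KRT8 to KRT18 ratio was 0.116 to 0.489. The depth limits ZEB1 (20 to 38 reads) most.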
